A study of Mus musculus with 4 samples.

Results

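The genes of interleukins and of interleukin receptor chains were followed in primary mouse Kupffer cell cultures given maresin 1 (MaR1). A gene was taken if its symbol, found through the RefSeq accession of its array probe, began with Il and a digit. Il4i1, Il4ra, Il13ra1 and Il2rg were left out by the same rule. Probes were present for 78 such genes. Of these, 45 were well above background, by the mark of the extraction software, on both arrays of at least 1 group, among 24067 genes tested in all. The other 33 were not well above background on any of the 4 arrays at any of their probes.

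Interleukins are secreted signals between leukocytes and tissue cells. Most act through a receptor made of a chain specific to the ligand and a chain shared by a family, such as Il1rap in the IL-1 family, Il6st (gp130) in the IL-6 family and the common gamma chain. Decoy receptors, receptor antagonists and binding proteins hold the ligand or the receptor without passing a signal on. Kupffer cells, the macrophages resident in the liver, are a known source of IL-1, IL-6, IL-10 and IL-18. Maresin 1, a product of macrophages derived from docosahexaenoic acid, is known as a lipid that helps to end inflammation.

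The MaR1 group had 2 arrays, from cells kept 24 h with 200 nM of the mediator, and the vehicle (Veh) group had 2 arrays, from cells kept 24 h with ethanol alone. Both groups came from male C57BL/6 mice aged 8 weeks and were in RPMI medium with low serum during treatment. The cells were isolated by collagenase perfusion of the liver and a Percoll gradient, with no sort for a surface marker named in the labels. Total RNA was measured on one-colour arrays. Whether a group's arrays stand for separate animals or cultures is not stated in the labels. The p-values therefore cover the array-to-array spread alone, and that spread may be technical. Levels are given on a log2 scale relative to each array's own 75th percentile of processed signal, and the lowest level well above background on the first MaR1 array was -5.75.

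The cultures carried the markers of their label. All 12 listed Kupffer cell genes were measured, among them Clec4f and Marco, a scavenger receptor gene whose level was 8.24 and 8.24 on MaR1 arrays and 8.46 and 8.39 on Veh arrays. Of the 12, 1 was higher and 3 were lower with MaR1. Spic, a transcription factor gene of tissue macrophages, fell by 1.71 ± 0.06 on the log2 scale, Adgre1, which encodes F4/80, by 0.67 ± 0.06 and Id3 by 0.59 ± 0.07. The Id3 call was lost without MaR1 replicate 2 or Veh replicate 1 (adjusted p up to 0.0632). Their part in the results below was not tested. The 12 genes' summed signal was 976 to 989 times the 75th percentile on MaR1 arrays and 1073 to 1114 times on Veh arrays. Genes of other liver and blood cells were measured too. None of 8 neutrophil and monocyte markers was called (Csf3r, the brightest, had a difference of -0.13 ± 0.07), and of 5 bile duct markers 1 was higher and none lower (Krt19, the brightest, -0.33 ± 0.10, not called). In a bulk culture, fewer cells of a type and less RNA per cell cannot be told apart.

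More interleukin genes were higher than lower with MaR1. By limma's moderated test (adjusted p under 0.05 over all genes tested, the meaning of called, rose and fell below), 20 of the 45 were higher and 3 lower. Over all genes tested, 11.2% were higher and 12.7% lower, so that 46.8% of all calls were higher, against 26.9% with no scaling between arrays. The median log2 difference, MaR1 minus Veh, was 0.24 for the interleukin genes and -0.02 for all genes. The 2 MaR1 arrays did not overlap the 2 Veh arrays in 36 of the 45 genes and in 69.6% of all genes. The 23 called genes were all among the 36, which a call with so few arrays nearly requires. Il31ra, Il17rb and Il17re were measured through the MaR1 arrays alone. Without them 17 of 42 were higher and 3 lower, against 10.6% and 12.5% of the 23577 genes well above background in both groups. The count of higher genes was 13 without MaR1 replicate 1, 11 without MaR1 replicate 2, 14 without Veh replicate 1 and 13 without Veh replicate 2, and that of lower genes was 2 in each case. Of the 23 calls, 12 held whichever array was left out.

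Both receptor chains and ligands were among the called genes. Of 25 receptor chain genes, 13 were higher and 1 lower, with a median log2 difference of 0.36. The 13 include Il31ra, Il17rb and Il17re, which were measured through the MaR1 arrays alone. Of 16 ligand genes, 6 were higher and 2 lower, with a median of 0.11. The 2 decoy receptor genes split, Il13ra2 being called and Il1r2 not, and neither the antagonist gene Il1rn nor the binding protein gene Il18bp was called. A fitted difference of at least 2-fold was found for 8 higher genes and 0 lower ones, where 2.24% and 1.09% of all genes were so called. Il31ra and Il17rb are among these 8. Called genes were found at high and low signal. Of 23 interleukin genes above the 75th percentile, 11 were higher and 1 lower, and of the 22 dimmer ones 9 were higher and 2 lower. Of all genes above the 75th percentile, 13% were higher and 8.98% lower, and of the dimmer ones 9.95% and 15.5%.

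**Figure D1:**
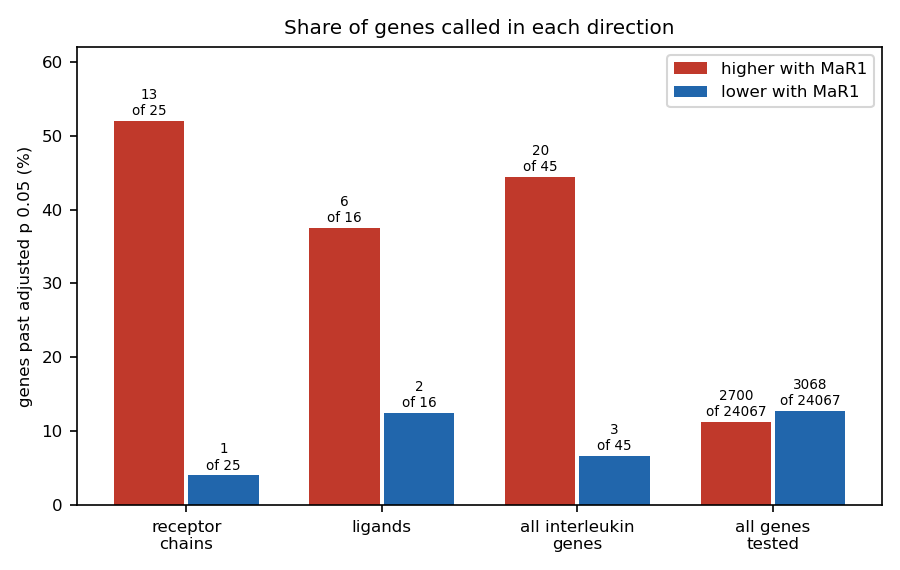
Share of genes (%) past an adjusted p of 0.05 in each direction, for receptor chains, ligands, all interleukin genes and all genes tested, with the counts above the bars. The higher share is 44.4% for interleukin genes against 11.2% for all genes. The receptor chains include Il31ra, Il17rb and Il17re, measured through the MaR1 arrays alone.

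**Figure D2:**
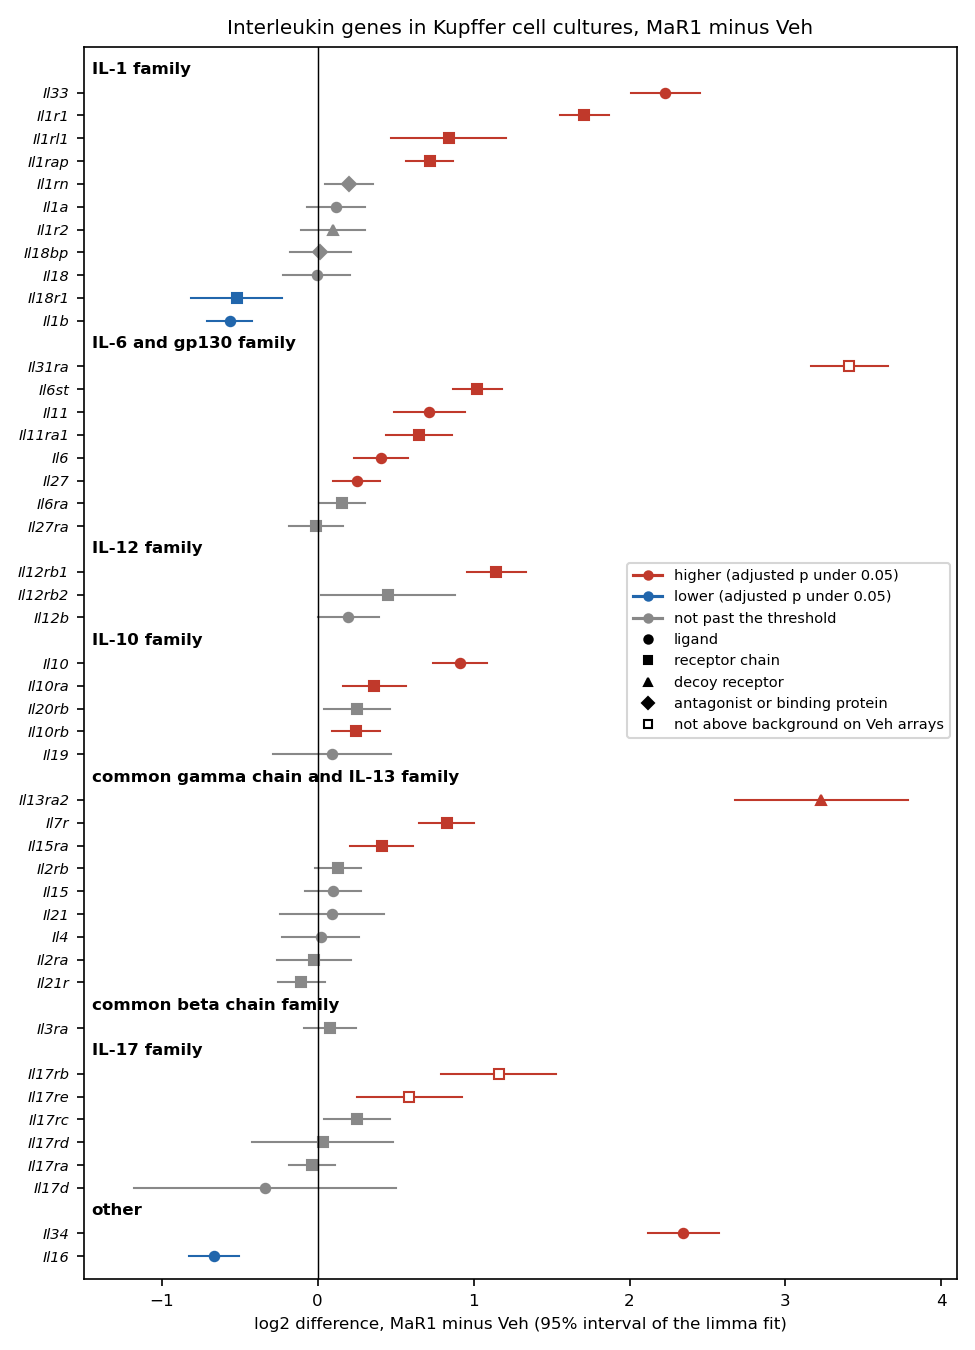
Log2 difference, MaR1 minus Veh, of the 45 measured interleukin genes by family, with the 95% interval of the limma fit (2 arrays per group). Marker shape gives the role and colour the call, and open markers (Il31ra, Il17rb, Il17re) were not well above background on Veh arrays. Il31ra, Il13ra2, Il34 and Il33 lie farthest to the right.

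The IL-33 system rose at the ligand and at both receptor chains. Il33 encodes a nuclear alarmin that damaged cells release. Its level was -0.08 and 0.08 on MaR1 arrays, against -2.26 and -2.19 on Veh arrays. The difference was 2.23 ± 0.08 (log2, with the SE of the fit and 2 arrays in each group here and below, adjusted p = 0.0017), or 4.69-fold. Its dimmer probe, well above background on only 1 of the 2 Veh arrays, gave 1.51 ± 0.15. Il1rl1, which encodes ST2, the chain that binds IL-33, was called with a wider error. It was read at 1 of its 3 probes, the others not being well above background on both arrays of either group. Its level was -3.64 and -3.67 on MaR1 arrays, against -4.68 and -4.32 on Veh arrays, a difference of 0.84 ± 0.14 (adjusted p = 0.0217). That call was lost without either MaR1 array (adjusted p up to 0.0884), and the difference was 0.41 with normexp. Il1rap, the accessory chain that ST2 shares with the IL-1 receptor, had levels of -0.71 and -0.75 on MaR1 arrays, against -1.43 and -1.46 on Veh arrays (0.72 ± 0.06, adjusted p = 0.00527). Of 3 Il1rap probes, 2 were well above background on both arrays of a group, and the dimmer of these gave 1.22 ± 0.17. The probes do not tell the membrane forms of Il1rl1 and Il1rap from the soluble ones here.

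The promoter window of Il33 is shown because the ligand and both chains of its receptor were called. RefSeq windows (GRCm38.p6, 250 bases before to 50 after a start) were found for 35 of the 45 measured genes, 48 windows in all. Il33 has 2 windows, and the one at chr19:29924863-29925162 (plus strand) is printed 5′ to 3′. Capitals here and in the later windows mark matches, on either strand, to the STAT letters TTCNNNGAA, the STAT6-type letters (TTC and GAA spaced by 4 bases), the ROR half-site AGGTCA, the AP-1 letters TGANTCA, the TATA letters TATAAA or the NF-kappaB consensus. In this window they mark TATA letters and a STAT6-type match. The other Il33 window, at chr19:29945540-29945839, holds TATA letters and no STAT6-type match.
Il33: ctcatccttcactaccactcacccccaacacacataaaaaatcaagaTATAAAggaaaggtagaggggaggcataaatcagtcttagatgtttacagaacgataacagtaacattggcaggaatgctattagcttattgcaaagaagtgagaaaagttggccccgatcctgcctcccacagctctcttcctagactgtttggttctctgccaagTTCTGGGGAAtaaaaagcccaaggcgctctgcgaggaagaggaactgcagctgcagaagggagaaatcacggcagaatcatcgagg
Of all 32851 windows in the table, 8.30% hold the STAT letters, 6.95% the STAT6-type letters, 16.3% the ROR half-site, 7.81% the AP-1 letters, 13.6% the TATA letters and 5.80% the NF-kappaB consensus. Among the 20 windows of called higher interleukin genes, the counts in the same order were 2, 2, 3, 5, 3 and 1. These windows belong to 14 of the called higher genes, some with more than 1 window, and the other called higher genes had none. A match is a description of letters and not a binding site, and no match overlapped another in the windows printed.

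IL-1 itself moved in a different way at the ligand and at the receptor. Il1r1, the signalling receptor for IL-1 alpha and IL-1 beta, had levels of 1.52 and 1.56 on MaR1 arrays, against -0.19 and -0.15 on Veh arrays. It rose by 1.71 ± 0.06, or 3.27-fold (adjusted p = 0.00158). Il1b, the secreted inflammatory ligand, had levels of 3.14 and 3.13 on MaR1 arrays, against 3.71 and 3.70 on Veh arrays. It fell by 0.56 ± 0.05 on the log2 scale (adjusted p = 0.00737), and its second probe gave -0.55 ± 0.08. The other ligand, Il1a, had levels of 1.56 and 1.46 with MaR1 and 1.35 and 1.43 with Veh. Its difference of 0.12 ± 0.07 did not pass (adjusted p = 0.276, 95% interval -0.07 to 0.31). The groups of Il1r1, Il1b and Il1a did not overlap, but neither did those of 69.6% of all genes.

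The main probes of the genes known as brakes on IL-1 did not pass. Il1rn, which encodes the secreted receptor antagonist, was at 6.60 and 6.64 on MaR1 arrays and 6.43 and 6.40 on Veh arrays. The difference of 0.20 ± 0.06 did not pass (adjusted p = 0.0706), whereas a dimmer Il1rn probe was called at 0.48 ± 0.07 (adjusted p = 0.0169). The direction was the same at both probes, while the call was not. Il1r2, the decoy receptor for IL-1, was at -3.12 and -3.28 with MaR1 and -3.28 and -3.31 with Veh (0.10 ± 0.08, adjusted p = 0.394). A second Il1r2 probe had the opposite sign and did not pass either (-0.10 ± 0.11). It was the 1 exception in sign among 19 further probes, of 18 interleukin genes, that were well above background on both arrays of a group. Those of Il31ra, Il34, Il19 and Il33 passed this filter through the MaR1 arrays alone, which favours a higher reading by construction. Probes that did not pass the filter were not compared.

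The Il1b window at chr2:129371090-129371389 (minus strand) is shown for the IL-1 ligand gene that fell. Its capitals mark TATA letters only.
Il1b: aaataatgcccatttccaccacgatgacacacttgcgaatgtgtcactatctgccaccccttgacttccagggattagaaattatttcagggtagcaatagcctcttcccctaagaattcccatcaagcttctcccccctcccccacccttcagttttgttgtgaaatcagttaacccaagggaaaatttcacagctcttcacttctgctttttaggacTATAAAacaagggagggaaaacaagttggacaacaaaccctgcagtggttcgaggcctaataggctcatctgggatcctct

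In the IL-18 branch the receptor fell. Il18r1, which encodes the chain that binds IL-18, had levels of -4.06 and -3.85 on MaR1 arrays, against -3.52 and -3.35 on Veh arrays (-0.52 ± 0.11, adjusted p = 0.0369). The call was lost whichever array was left out (highest adjusted p 0.125). Il18, the ligand gene, was at 3.54 and 3.70 with MaR1 and 3.60 and 3.66 with Veh, groups that overlapped (-0.01 ± 0.08, 95% interval -0.22 to 0.21). Il18bp, which encodes the soluble protein that binds IL-18, was at 6.45 and 6.36 with MaR1 and 6.45 and 6.34 with Veh (0.02 ± 0.07). Its second probe gave 0.05 ± 0.07. In RefSeq's gene order the receptor genes Il1r2, Il1r1, Il1rl2, Il1rl1, Il18r1 and Il18rap follow each other on chromosome 1 with no other protein-coding gene between them. Within this run Il1r1 and Il1rl1 were higher, Il18r1 lower and Il1r2 not called, and Il1rl2 and Il18rap were not well above background on any array.

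Grouped here with IL-6 and gp130 were 8 measured genes, of which 6 were higher and none lower. They were the ligand genes Il6, Il11 and Il27 and the receptor chain genes Il6st, Il11ra1 and Il31ra, while the chains Il6ra and Il27ra were not called. Over all genes tested, 11.2% were higher and 12.7% lower. Il31ra was measured through the MaR1 arrays alone, and of the 6 calls only those of Il6st and Il31ra held whichever array was left out. Il6st encodes gp130, the signalling chain shared by IL-6, IL-11, IL-27, oncostatin M and leukaemia inhibitory factor. Its level was 3.83 and 3.89 on MaR1 arrays, against 2.85 and 2.83 on Veh arrays, a 2.03-fold rise (1.02 ± 0.06, adjusted p = 0.00312). A dimmer Il6st probe gave 0.95 ± 0.11.

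Il31ra encodes the chain that binds IL-31 together with the oncostatin M receptor, and was detected in the MaR1 group alone. Its level was -3.27 and -3.18 on MaR1 arrays, against -6.73 and -6.53 on Veh arrays, where it was not well above background. It was at least 5.08-fold higher, taking the Veh level at the lowest signal well above background on those arrays. The adjusted p (0.00138 for Il31ra), here and for later bounds, came from the fit to the measured signals, and no bound was tested. With normexp the difference was 2.44-fold, or 2.36-fold with quantile normalization, below that bound, and the call held. The second Il31ra probe was not well above background on Veh arrays either, and was at least 1.20-fold higher with MaR1. Osmr, the partner chain, had levels of 0.04 and 0.11 with MaR1 and -0.36 and -0.31 with Veh (0.41 ± 0.06, adjusted p = 0.0177), a call lost on leaving out any array, with adjusted p reaching 0.0897. Il31, the ligand gene, stayed below that mark on all 4 arrays. Il6st and Il31ra are direct neighbours on chromosome 13 in RefSeq's order of protein-coding genes.

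The Il31ra window at chr13:112580613-112580912 (minus strand) is shown for this receptor gene, the direct neighbour of Il6st. Its capitals mark 1 match to the STAT letters. The window of its neighbour Il6st held none of the motifs.
Il31ra: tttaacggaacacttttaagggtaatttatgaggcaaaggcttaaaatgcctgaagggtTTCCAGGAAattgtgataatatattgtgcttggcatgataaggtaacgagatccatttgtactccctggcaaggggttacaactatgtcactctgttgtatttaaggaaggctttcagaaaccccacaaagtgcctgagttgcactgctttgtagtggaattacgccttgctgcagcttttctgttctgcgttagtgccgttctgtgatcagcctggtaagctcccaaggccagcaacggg

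Of the interleukin ligands that signal through gp130, 3 were called. Il6 had levels of 2.01 and 2.00 on MaR1 arrays, against 1.55 and 1.65 on Veh arrays (0.41 ± 0.06, adjusted p = 0.0202), and its dimmer probe gave 0.57 ± 0.06. Il11, a cytokine gene known from fibrosis, had levels of -0.98 and -0.93 on MaR1 arrays, against -1.76 and -1.58 on Veh arrays (0.71 ± 0.08, adjusted p = 0.0112). Il27, which encodes the p28 chain of IL-27, was at 0.30 and 0.31 with MaR1 and 0.04 and 0.07 with Veh (0.25 ± 0.05, adjusted p = 0.042). The calls of Il6 and Il27 were lost whichever array was left out (highest adjusted p 0.094 for Il6 and 0.177 for Il27), and that of Il11 without MaR1 replicate 2 (adjusted p = 0.0599). Fewer arrays leave fewer degrees of freedom, so a lost call does not show that a difference rests on 1 array. The 2 MaR1 levels of Il11 were close to each other.

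Among the ligand-specific chains, Il11ra1 had levels of 4.99 and 5.15 on MaR1 arrays, against 4.43 and 4.39 on Veh arrays (0.65 ± 0.08, adjusted p = 0.0116). The probe may also read the near-identical mouse gene Il11ra2. The call was lost without either Veh array (adjusted p up to 0.0566). Il6ra, the IL-6 binding chain, was at 3.55 and 3.56 with MaR1 and 3.41 and 3.39 with Veh, and its difference of 0.16 ± 0.05 did not pass (adjusted p = 0.109). Its dimmer probe was called at 0.26 ± 0.06 (adjusted p = 0.0454). Il27ra, the IL-27 receptor gene, was at 0.34 and 0.44 with MaR1 and 0.41 and 0.40 with Veh (-0.01 ± 0.06).

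**Figure D3:**
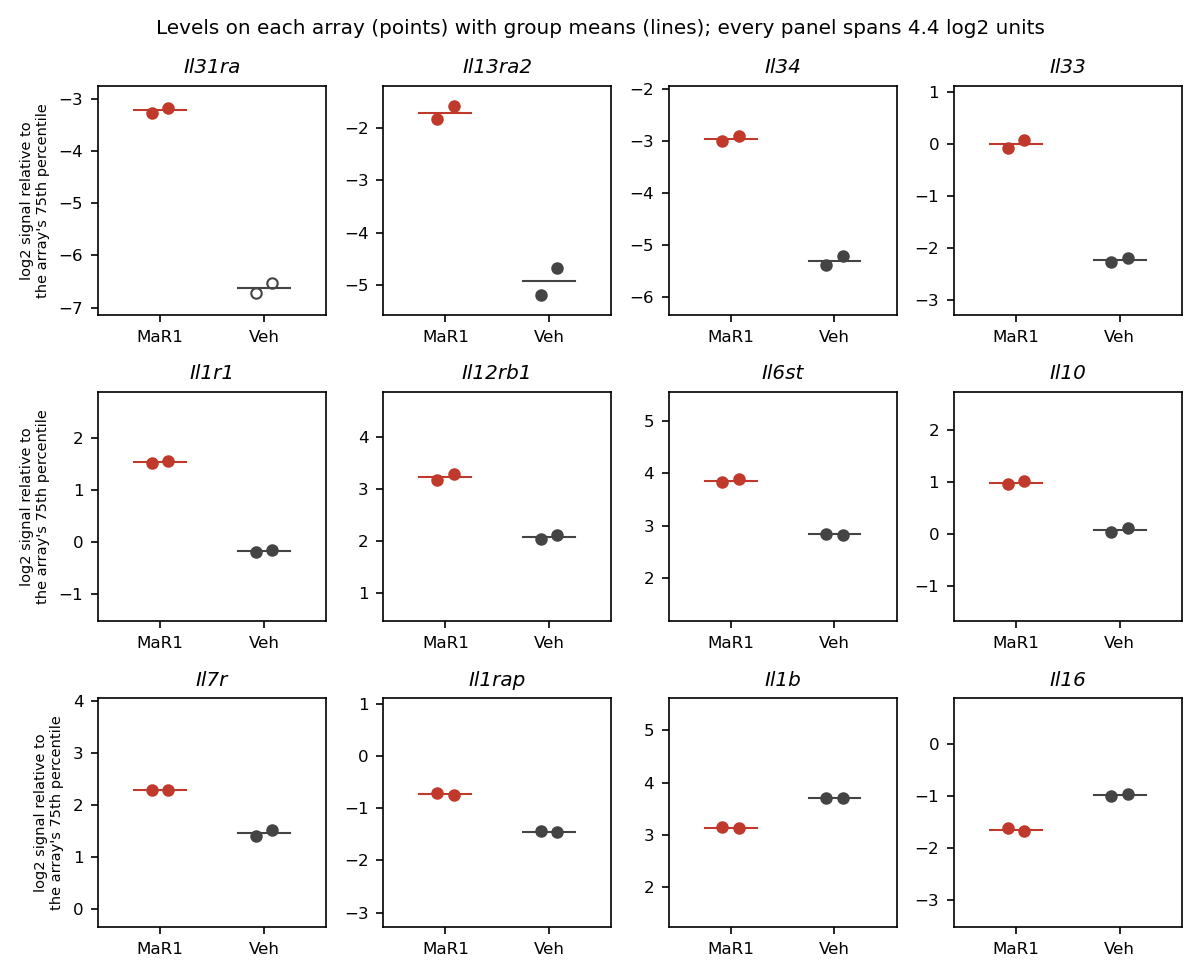
Level on each array (log2 signal relative to the array's 75th percentile, points) with group means (lines) for the 12 interleukin genes whose call held under every alternative that included them, MaR1 left and Veh right. The groups are apart in every panel, and Il1b and Il16 are the 2 that are lower with MaR1. Open points for Il31ra were not well above background.

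IL-10 rose with its receptor. Il10, the anti-inflammatory cytokine gene, had levels of 0.96 and 1.01 on MaR1 arrays, against 0.03 and 0.12 on Veh arrays (0.91 ± 0.06, adjusted p = 0.00425). Il10ra, the chain that binds IL-10, had levels of 4.59 and 4.73 on MaR1 arrays, against 4.29 and 4.30 on Veh arrays (0.36 ± 0.07, adjusted p = 0.0355). Il10rb, a chain shared with the IL-22 and lambda interferon receptors, was at 5.40 and 5.46 with MaR1 and 5.18 and 5.19 with Veh (0.24 ± 0.06, adjusted p = 0.0487). Both receptor calls were lost whichever array was left out (highest adjusted p 0.131 for Il10ra and 0.185 for Il10rb), while that of Il10 held. Il10rb sits just inside the threshold, and Il1rn, at adjusted p = 0.0706, is the nearest gene outside it.

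Il19, another IL-10 family cytokine gene, gave different answers at its 2 probes. At the brighter one its level was -3.88 and -3.73 with MaR1 and -3.72 and -4.07 with Veh, groups that overlapped (0.09 ± 0.14). At the dimmer probe it was -5.07 and -4.52 on MaR1 arrays, against -7.60 and -6.66 on Veh arrays, where it was not well above background, and it was at least 1.71-fold higher (adjusted p = 0.0213). Il20rb, a receptor chain for IL-19, IL-20 and IL-24, was at -0.73 and -0.68 with MaR1 and -0.88 and -1.04 with Veh (0.25 ± 0.08, adjusted p = 0.0851).

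In the IL-12 family a single chain was called. Il12rb1, shared by the receptors for IL-12 and IL-23, had levels of 3.17 and 3.28 on MaR1 arrays, against 2.04 and 2.11 on Veh arrays, a 2.21-fold rise (1.15 ± 0.07, adjusted p = 0.00342). Its partner Il12rb2 was at -3.78 and -4.03 with MaR1 and -4.53 and -4.17 with Veh (0.45 ± 0.16, adjusted p = 0.113). Il12b, the p40 subunit gene of both cytokines, was at -3.50 and -3.37 with MaR1 and -3.66 and -3.61 with Veh (0.20 ± 0.07, adjusted p = 0.122). Il12a, Il23a and Il23r were not well above background on any array.

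Among the 42 interleukin genes well above background in both groups, Il13ra2 had the largest difference. It encodes a receptor that binds IL-13 tightly and is known mainly as a decoy. Its level was -1.83 and -1.58 on MaR1 arrays, against -5.20 and -4.68 on Veh arrays, a 9.39-fold rise (3.23 ± 0.21, adjusted p = 0.00362). This rests on 1 of its 2 probes, as the other was not well above background on both arrays of either group. The Veh arrays lie near the detection limit and differ by more than the MaR1 arrays do. With normexp background correction, which adds an offset of 50 to every signal, the rise was 3.65-fold with 75th percentile scaling and 3.61-fold with quantile normalization, and the call held. Il13 was below the background mark on all 4 arrays. Il4 was at -0.67 and -0.46 with MaR1 and -0.58 and -0.59 with Veh, groups that overlapped (0.02 ± 0.09, 95% interval -0.23 to 0.27). The signalling chains that IL-4 and IL-13 use did not pass, with differences of -0.01 ± 0.07 for Il4ra and 0.21 ± 0.07 for Il13ra1. The mean of the Il4ra probes gave 0.38, past the threshold, so its probes disagree.

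The Il13ra2 window at chrX:147429143-147429442 (minus strand) is shown for this decoy gene. Its capitals mark 2 runs of TATA letters and 1 AP-1 match.
Il13ra2: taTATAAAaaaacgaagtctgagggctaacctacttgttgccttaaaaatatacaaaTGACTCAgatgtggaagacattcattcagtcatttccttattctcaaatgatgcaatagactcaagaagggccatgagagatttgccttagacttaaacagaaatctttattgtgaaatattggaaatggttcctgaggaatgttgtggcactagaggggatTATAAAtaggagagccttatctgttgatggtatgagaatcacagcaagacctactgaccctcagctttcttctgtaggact

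Receptors that pair with the common gamma chain changed in part. Il7r, the IL-7 receptor chain that also serves thymic stromal lymphopoietin, had levels of 2.29 and 2.29 on MaR1 arrays, against 1.41 and 1.52 on Veh arrays (0.83 ± 0.06, adjusted p = 0.00527). Il15ra, which presents IL-15 to other cells, was at 6.48 and 6.62 on MaR1 arrays, against 6.18 and 6.11 on Veh arrays (0.41 ± 0.08, adjusted p = 0.0284), with 0.36 ± 0.08 and 0.29 ± 0.06 at its other probes. That call was lost whichever array was left out (highest adjusted p 0.116). Il15, its ligand, had a difference of 0.10 ± 0.07 that did not pass. Il2rb (0.13), Il21 (0.09), Il2ra (-0.02) and Il21r (-0.11) did not pass either, nor did Il2rg, the common gamma chain gene itself (0.18 ± 0.06, adjusted p = 0.112). Il7, Il2 and Il9 were not well above background on any array. Il3ra, the measured member of the common beta chain family, had a difference of 0.08 ± 0.06 that did not pass.

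Il7r, Il12rb1 and Il18r1 are also known from T and NK cells, whose markers differed between the groups. Of 11 measured T cell markers, 2 were higher and 6 lower, with a median log2 difference of -0.31. Their summed signal was 17.2 to 17.3 times the 75th percentile on MaR1 arrays and 22.7 to 23.0 times on Veh arrays. Thy1, the brightest, fell by 0.85 ± 0.06 on the log2 scale, while Cd8a rose by 1.27. Of 9 measured markers of NK and innate lymphoid cells, 3 were higher and 2 lower, and the summed signal was 76.3 to 82.4 on MaR1 arrays and 44.0 to 44.6 on Veh arrays. The granzyme gene Gzma led that sum and rose by 1.37 ± 0.09. The 2 lower markers were Klrd1 (-0.39 ± 0.06) and Ncr1 (-0.34 ± 0.06), so the list did not move in 1 direction. The part of these cells in the levels of Il7r, Il12rb1 and Il18r1 was not tested.

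In the IL-17 receptor family, the 2 genes called were not well above background on Veh arrays. Il17rb, the chain that binds IL-25, had levels of -4.52 and -4.28 on MaR1 arrays, against -5.43 and -5.70 on Veh arrays, where it was not well above background. At least a 2.16-fold rise was measured (adjusted p = 0.0112), and the call was lost without MaR1 replicate 2 (adjusted p = 0.0519). Il17re, a chain for IL-17C, had levels of -5.46 and -5.32 on MaR1 arrays, against -5.83 and -6.13 on Veh arrays, also below that mark. The rise was at least 1.13-fold (adjusted p = 0.039), and the call was lost without either MaR1 array or Veh replicate 2 (adjusted p up to 0.141). Il17ra, the chain these receptors share, was at 0.70 and 0.72 with MaR1 and 0.74 and 0.75 with Veh (-0.03 ± 0.05, 95% interval -0.18 to 0.11). With normexp and the 75th percentile, Il17rb was 1.22-fold and Il17re 1.11-fold higher, both below their bounds, and the Il17re call was lost (adjusted p = 0.111). Il17rc (0.25), Il17rd (0.03) and the ligand gene Il17d (-0.34) did not pass, although Il17rc was called under 3 alternatives. Il17a, Il17b, Il17c, Il17f and Il25 were not well above background on any array. Mast cell, basophil and eosinophil markers, cells known to carry ST2, were higher at 2 of 7 measured genes and lower at none. Their sum was 9.65 to 9.67 with MaR1 and 5.98 to 6.16 with Veh, led by Kit (0.69 ± 0.06), while Mcpt8, Tpsab1, Fcer1a, Ms4a2 and Epx were not measured. Their part in Il17rb and Il1rl1 was not tested.

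Il34 and Il16 stand outside these families and moved in opposite directions. Il34 encodes a second ligand of the macrophage growth factor receptor CSF1R. Its level was -3.00 and -2.92 on MaR1 arrays, against -5.39 and -5.22 on Veh arrays, a 5.08-fold rise (2.34 ± 0.08, adjusted p = 0.00166), and its dimmer probe, not well above background on Veh arrays, was at least 1.64-fold higher. The Veh levels lie close to the lowest level well above background on those arrays (-5.54 and -5.59). With normexp the rise of Il34 was 2.17-fold, or 2.13-fold with quantile normalization, and the call held. Csf1, the other ligand of that receptor, rose by 0.93 ± 0.08. Csf1r itself was at 6.57 and 6.68 with MaR1 and 6.35 and 6.31 with Veh (0.29 ± 0.07, adjusted p = 0.0471), a call lost on leaving out any array, with adjusted p reaching 0.173. Il16, which encodes a chemoattractant that acts through CD4, had levels of -1.63 and -1.68 on MaR1 arrays, against -1.01 and -0.97 on Veh arrays (-0.67 ± 0.06, adjusted p = 0.00639).

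Il33, Il34 and Il11 are also made by stromal and endothelial cells. Of 7 measured stellate cell markers, 0 were higher and 2 lower, with summed signals of 37.8 to 38.9 on MaR1 arrays and 40.7 to 40.8 on Veh arrays. Acta2, the brightest, had a difference of -0.06 ± 0.06 that did not pass, and Des, Lrat and Ngfr were not measured. Of 10 sinusoidal endothelial markers, 4 were higher and none lower, and the 9 read on every array summed to 83.2 to 83.6 with MaR1 and 68.9 to 72.3 with Veh. Pecam1 rose most (1.15 ± 0.06, adjusted p = 0.00298), while Kdr, Clec4g, Ptprb, Lyve1 and Tek had negative differences that did not pass. Stab2, the brightest, rose by 0.47 ± 0.07, and lost its call without MaR1 replicate 2 or either Veh array (adjusted p up to 0.0881). Hepatocyte markers were lower at 1 of 8 genes and higher at none, and the brightest, Alb, did not pass (-0.23 ± 0.09). The part of endothelial cells in these ligand levels was not tested. Of 9 measured dendritic cell markers, 6 were higher and none lower (sums of 74.2 to 74.8 with MaR1 and 47.5 to 50.9 with Veh), and of 8 B cell markers 4 were higher and none lower (9.97 to 10.4 with MaR1 and 7.48 to 7.72 with Veh). The dendritic cell genes Itgax (2.39 ± 0.08), Batf3 (1.89 ± 0.06) and Clec9a (0.99 ± 0.06) rose most, and Pou2af1 (1.59 ± 0.07) and Ms4a1 (1.21 ± 0.09) led the B cell list. These calls held whichever array was left out. Siglech (-0.28 ± 0.09) and Cd22 (0.15 ± 0.06), the markers with the highest median signal, did not pass, although Siglech was called lower under 5 alternatives. The part of these cells in the receptor chain levels was not tested either.

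Inside the cell, SOCS genes, which damp signalling from cytokine receptors, were among those that rose. Of 19 genes on the JAK, STAT and SOCS list, 8 were higher and none lower, with a median log2 difference of 0.23. The suppressors of cytokine signalling Socs1 (1.33 ± 0.11), Socs3 (0.98 ± 0.06) and Socs2 (0.89 ± 0.07) led, with the kinase gene Jak2 (0.68 ± 0.05). On the list of STAT3 targets downstream of IL-6 and IL-10, 7 of 10 were higher and none lower (median 0.57). Tnip3, an inhibitor of NF-kappaB signalling, rose by 1.43 ± 0.07, the repressor genes Nfil3 and Etv3 by 1.15 ± 0.06 and 0.91 ± 0.06. Socs3 is on both lists. The calls named here held whichever array was left out, while the count of the first list was 5 without MaR1 replicate 2, Veh replicate 1 or Veh replicate 2.

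Shared chains and relatives without an Il name were higher at 6 of 15 measured genes and lower at 1 (median 0.19). The lower gene was Clcf1 (-0.29 ± 0.05, adjusted p = 0.0315), a call lost with a replicate block. The leukaemia inhibitory factor receptor gene Lifr, another gp130 partner, rose by 0.81 ± 0.09. Csf2rb, the common beta chain gene, rose by 0.67 ± 0.06 and its near-identical relative Csf2rb2 by 0.56 ± 0.06, and cross-hybridisation between these copies was not tested. The Csf2rb2 call was lost without Veh replicate 2 (adjusted p = 0.0516), where 3 of the list were higher. Of 18 genes of IL-1 family processing and signalling, 2 were higher and 2 lower (median 0.00). Irak3, which encodes an inhibitory kinase of the IL-1 and Toll-like receptor pathway, fell by 1.27 ± 0.07 on the log2 scale, and its call held without any 1 array. Casp4 (0.45), Traf6 (0.35) and Irak1 (-0.24) lost their calls on leaving out any array, with adjusted p reaching 0.067 for Casp4, 0.119 for Traf6 and 0.199 for Irak1.

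**Figure D4:**
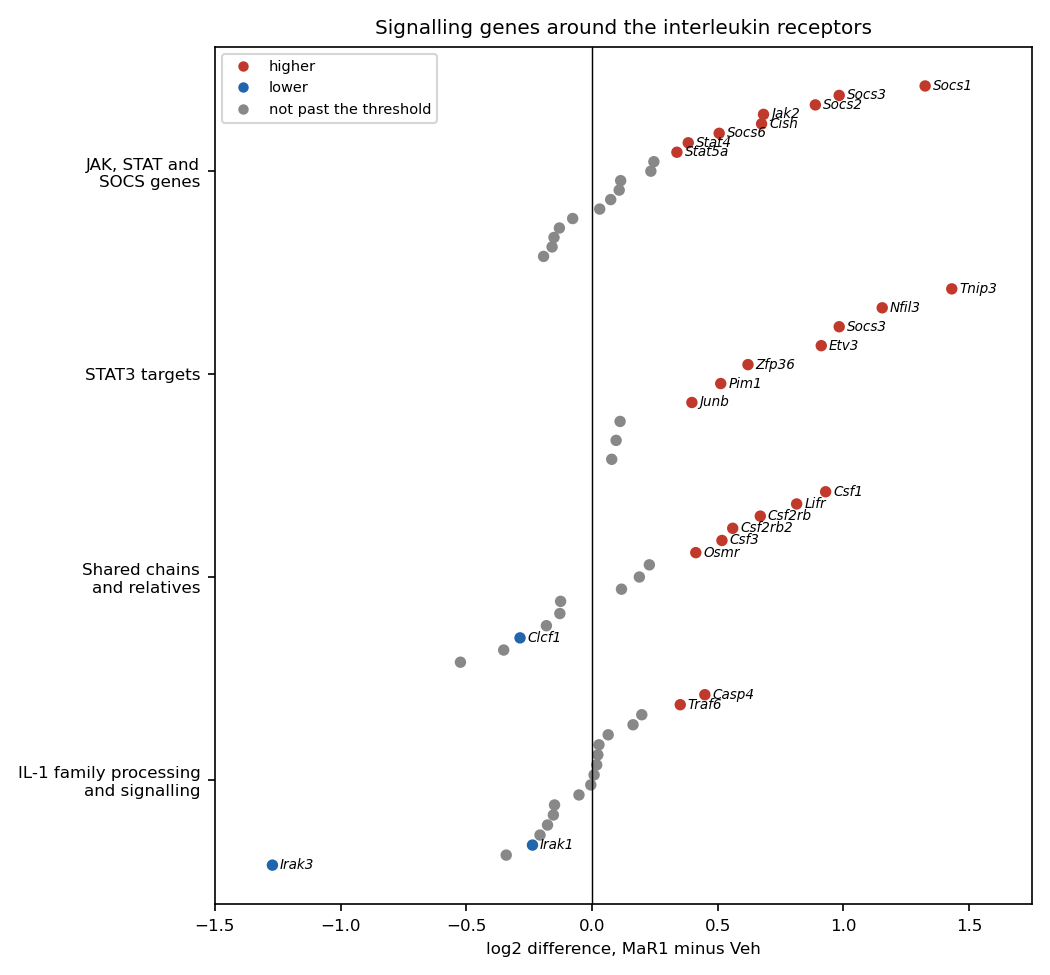
Log2 difference, MaR1 minus Veh, of each measured gene on 4 lists of signalling genes around the interleukin receptors, with called genes coloured and named. Socs1, Tnip3 and Csf1 lead the first 3 lists, and Irak3 lies alone at -1.27 in the fourth.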

How the data were processed

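Per the file headers, the authors scanned one-colour (Cy3) Agilent arrays, and per the submitters' processing notes the signals were extracted with Agilent Feature Extraction 11.0.1.1. The deposited intensity values are background-subtracted within an array and not normalized between arrays. The authors' processed values are log2, with centring and filter not stated. The columns, each with a median of 9.07, followed log2 of the processed signal (r = 1), and these values served only as an alternative.

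Levels were scaled to the 75th percentile of processed signal, taken on the log2 scale from the 59305 spots that are not controls (846 to 946 on MaR1 arrays, 961 and 988 on Veh arrays). Outlier spots (94 to 123 per array) were left out, no spot was saturated (0), spots of a probe were averaged, and the number of arrays limits precision. Probes well above background on both arrays of a group were kept (31128 of 56605), and the brightest kept probe stood for its gene. Names came from RefSeq GRCm38.p6. The array design names mm9, so no position of a probe is given. Genes were tested with lmFit and eBayes (limma 3.58.1, R 4.3.3) over all 24067, two-sided, Benjamini-Hochberg, without a replicate term. The fit was tested on simulated data. A gene not well above background in a group has a bound in place of a fold. Its adjusted p is that of the fit to the measured signals, not of the bound. Figures used matplotlib 3.10.9 in Python 3.11.15. All arrays were on 1 slide with each group side by side, and a position effect cannot be told apart from treatment.

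The 45 members and the lists were chosen with earlier results of these data known. Called genes up to 30 and 16 fixed genes, such as Il1b, Il10 and Il18, are given by array, with up to 4 called genes per signalling list and the brightest marker per cell type. Cd8a, Spic, Adgre1, Id3, Itgax, Batf3, Clec9a, Pou2af1 and Ms4a1 were named after their values were seen. So were Clcf1, Klrd1, Ncr1, Pecam1, Kdr, Clec4g, Ptprb, Lyve1 and Tek. The alternatives were 14: other scaling, background correction, filters, probe rules, variance models, the authors' table, a replicate block and each array left out.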

Additional observations from a re-analysis of the deposited data

How the results depend on the processing

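All 23 called interleukin genes kept their sign under the 14 alternatives, and 12 kept their call under all that included them. Il31ra, Il17rb and Il17re were not in the authors' values or under the filter for all 4 arrays, which held 42 of the 45 genes. The 20 higher calls became 10 with no filter on dim probes (45616 genes tested) and 11 to 14 with 1 array left out, and the 3 lower calls became 2 with 1 array left out. Over all genes, the 2700 higher and 3068 lower calls became 1451 higher with no scaling between arrays, 1087 and 972 with no filter, 4524 and 4672 with an intensity trend, and 1011 to 1336 and 918 to 1489 with 1 array left out. Without scaling the median of all genes moved by -0.12 and 26.9% of calls were higher, against 46.8% in the scaled values. The interleukin calls lost there were Il10ra, Il10rb, Il15ra, Il27 and Il6. Fold sizes of dim genes moved most with normexp, whose offset of 50 compresses low signals by construction: the log2 difference was 1.85 to 1.87 for Il13ra2, 1.24 to 1.29 for Il31ra, 1.09 to 1.12 for Il34, 0.39 to 0.41 for Il1rl1, 0.24 to 0.29 for Il17rb, 0.08 to 0.16 for Il17re and -0.30 to -0.28 for Il18r1. Il10ra (0.23 to 0.24), Il10rb (0.12 to 0.13) and Il27 (0.13) also moved by over 1.5 times under other scalings. Il1rn passed with normexp and the 75th percentile, with the mean of its probes and with an intensity trend. Il17rc passed with both normexp settings and the trend, and Il20rb, Il6ra, Il13ra1 and Il2rg with the trend alone. Il19 passed with the mean of its probes, and Il4ra turned from -0.01 to 0.38 with that mean. On the signalling lists, the 8 higher JAK, STAT and SOCS genes became 5 to 6 with 1 array left out, and the 7 STAT3 targets 5 to 6. Only a number is shared between same-numbered arrays (r = -0.029 over genes between their deviations). With a replicate block, 14 interleukin genes were higher and 3 lower, and 1766 and 1926 of all genes. The cause of these changes was not tested, except that fewer arrays leave fewer degrees of freedom. Dim genes near the detection limit, such as Il17re, are limited by signal over background.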
